A study of Mus musculus with 7 samples.

Results

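The miR-15, miR-16, miR-195 and miR-497 family was followed in mouse skin wounds by real-time PCR. Its members were found by assay name alone, as the assays for miR-15a, miR-15b, miR-16, miR-195, miR-497, miR-322, miR-424 and miR-503, and 8 of the 306 miRNA assays on the plate met this rule. The RNA came from wound edge tissue of C57Bl6 mice, collected on day 3, with 4 samples from non-ischemic wounds and 3 from ischemic wounds. Ischemic wounds lay in a bipedicle flap, a strip of skin cut free along its sides so that blood reaches it only through its ends. The labels give no genotype, age or drug for either group, and they do not say whether each sample is a separate animal, so the p-values below rest on a spread between samples that may partly be technical. Abundance was read as a threshold cycle (Ct), the PCR cycle at which product crosses a set signal, so that a low Ct means much miRNA and 40 stands for no product. A Ct below 35 was counted as detection. Levels are on a log2 scale, made by subtracting the miRNA's Ct from that of 5S rRNA in the same sample. This makes them negative, and values closer to 0 are higher.

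Members of this family share a seed, the stretch near the 5′ end of a miRNA that pairs with target mRNAs, and so they overlap widely in their targets. They are best known as brakes on the cell cycle, acting on mRNAs for G1 cyclins, cyclin-dependent kinases and the checkpoint kinase Chek1, and as repressors of the survival factor Bcl2 and of the angiogenic factor VEGF-A. The group is encoded in several small clusters, so that members with nearly the same targets can be expressed independently of each other. A day 3 wound edge holds dividing keratinocytes, fibroblasts and endothelial cells beside inflammatory cells, and bulk tissue of this kind cannot separate a smaller share of a cell type from less miRNA per cell.

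The mature sequences show what joins the family and where it divides. They are given 5′ to 3′ from RefSeq (GRCm38.p6), as the 5p arm that carries the family seed, with the seed (bases 2 to 8) in capitals. The assay names state no arm, and no sequence is shown for miR-424, which is the name of the human counterpart of mouse miR-322.
miR-15a: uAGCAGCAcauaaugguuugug
miR-15b: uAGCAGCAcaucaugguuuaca
miR-16: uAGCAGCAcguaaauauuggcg
miR-195: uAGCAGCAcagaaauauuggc
miR-497: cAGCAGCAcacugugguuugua
miR-322: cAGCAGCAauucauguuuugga
miR-503: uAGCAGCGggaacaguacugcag

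Of these 7 sequences, 6 carried the seed AGCAGCA, and miR-503 carried AGCAGCG. In the RefSeq table the first seed was found in 10 of 1679 mature mouse miRNAs and the second in 1. Beyond the seed, similarity did not follow the gene clusters. Aligned from the 5′ end, miR-16 and miR-195 were the same at 11 of the 13 positions after base 8, although they come from different chromosomes. miR-195 and miR-497, which are neighbours, were the same at 5 of 13, and miR-15b and miR-16, also neighbours, at 6 of 14. miR-15a and miR-15b were the same at 10 of 14.

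The genes lie in 4 clusters of GRCm38.p6. Mir15b and Mir16-2 lie 66 bases apart on chromosome 3, inside the span of Smc4, which encodes a condensin subunit needed for mitosis, with mature miR-15b at chr3:69009775-69009796 and miR-16 at chr3:69009918-69009939 on the plus strand. Mir15a and Mir16-1 lie 54 bases apart on chromosome 14 inside the long non-coding gene Dleu2, with mature miR-15a at chr14:61632075-61632096 and miR-16 at chr14:61631936-61631957 on the minus strand. The mature miR-16 of both loci is identical, so its assay reads their sum. Mir497 and Mir195a lie 241 bases apart on chromosome 11, with mature miR-497 at chr11:70234730-70234751 and miR-195 at chr11:70235062-70235082 on the plus strand. Mir497 falls within the span of Mir497b, and Mir195a lies 68 bases from the protein-coding gene 0610010K14Rik. Mir503 and Mir322 lie 200 bases apart on chromosome X inside the long non-coding gene C430049B03Rik, with miR-503 at chrX:53054027-53054049 and the 5p arm of miR-322 at chrX:53054306-53054327 on the minus strand. Exon and intron positions within the host genes were not analysed here.

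The assays separated by detection before any comparison of the wounds. miR-15b, miR-16 and miR-195 were detected in 7 of 7 samples and miR-497 in 6 of 7, while miR-15a, miR-424, miR-503 and miR-322 were detected in 0 of 7. The Ct ran from 27.7 to 30.2 for miR-16, from 29.2 to 31.3 for miR-195, from 32.2 to 34.0 for miR-15b and from 32.8 to 36.5 for miR-497. miR-15a stayed between 35.6 and 39.0, and miR-322 gave no product in any sample. A Ct also depends on the efficiency of its assay, so the order of these values is not an order of abundance. miR-16 was thus read at early cycles in every sample, while miR-15a, encoded 54 bases from one of the miR-16 genes, was below the detection limit throughout. Since the miR-16 assay sums loci on chromosomes 3 and 14, these data do not tell which of them it read.

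**Figure D1:**
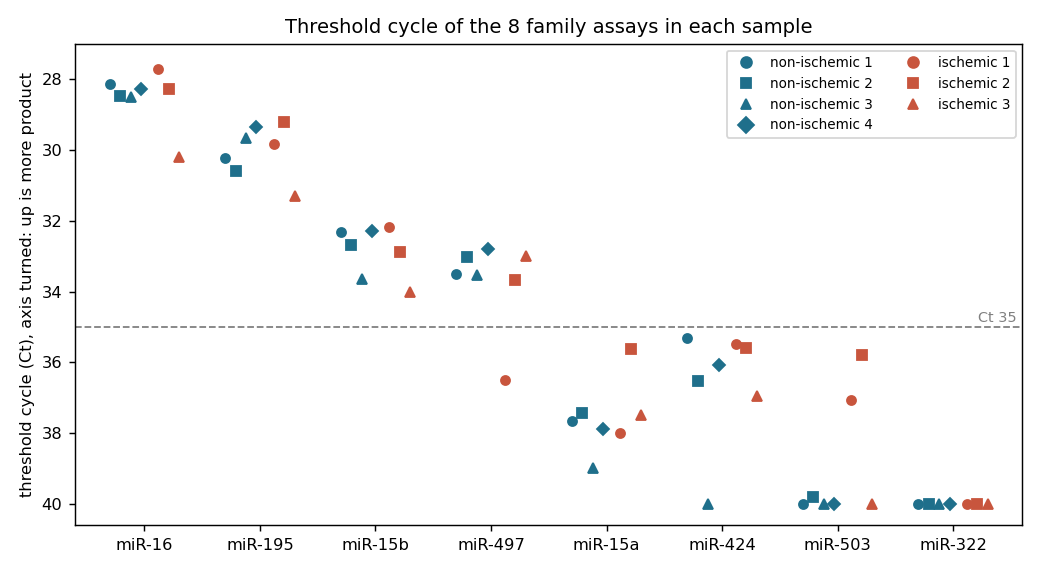
Threshold cycle of the 8 family assays (y axis, turned so that up is more product) in each of 4 non-ischemic and 3 ischemic samples, 1 point per sample, with Ct 35 as a dashed line. miR-16, miR-195 and miR-15b lie above the line in all samples, miR-497 drops below it in ischemic sample 1 at 36.5, and the other 4 assays lie below it throughout.

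For the plate as a whole, 91 to 106 miRNAs per sample were detected, and the 103 that passed Ct 35 in 3 or more samples were tested. Ischemic sample 3 stood apart. Its levels over the 76 miRNAs detected in all samples correlated with the other samples at 0.756 to 0.830, against 0.908 to 0.977 among those 6, where miRNAs are not independent replicates. There the leukocyte miRNAs miR-223, miR-142-3p and miR-142-5p, summed, lay at -4.58 log2 units from the non-ischemic mean, with 2 of the 3 undetected. Differences between the groups are therefore also given without ischemic sample 3.

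None of the 4 detected members was called as different between ischemic and non-ischemic wounds. In limma, a linear model fitted to all 103 tested miRNAs with Benjamini-Hochberg adjustment, 0 of the 4 members passed an adjusted p of 0.05, and 0% of all tested miRNAs did. At an unadjusted p of 0.05 it was 0 of 4 members beside 18.4% of all tested miRNAs (19 of 103). The ischemic and non-ischemic samples overlapped for all 4 members, whereas they did not overlap for 17.5% of all tested miRNAs. All 4 had a lower mean in ischemic wounds against 5S rRNA, as did 76.7% of all tested miRNAs, and the median difference of the 4 was -0.46 beside -0.35 for all 103. That shift depended on the reference. After global mean normalization 3 of the 4 members and 49.5% of all tested miRNAs were lower (median of all 0.01), and after global median normalization 1 of the 4 and 33 of 103 (median 0.22). Without ischemic sample 3, 0 of the 4 passed, beside 7.77% of all tested miRNAs, and 1 of the 4 was lower, beside 56.3%.

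**Figure D2:**
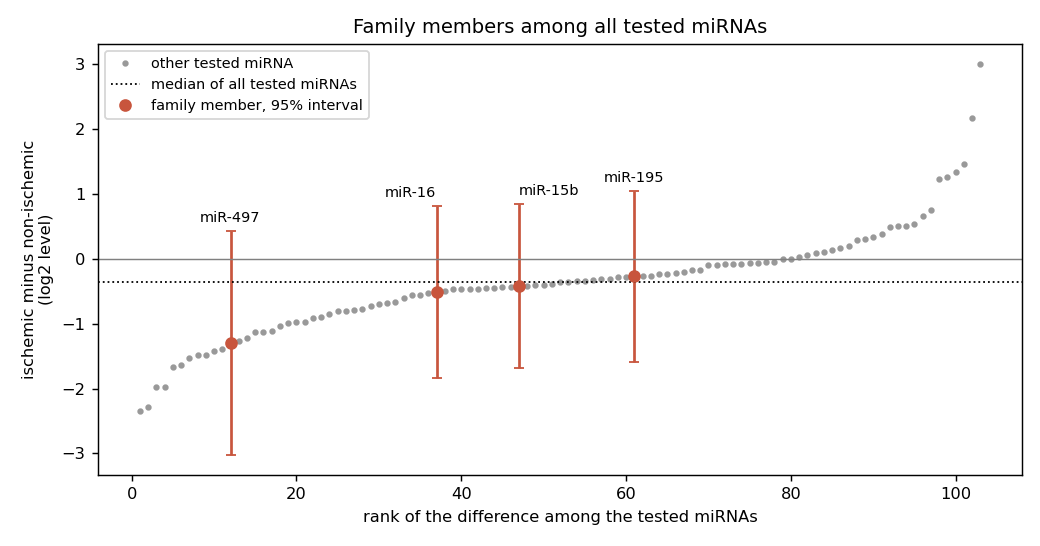
Difference in log2 level, ischemic minus non-ischemic (y axis), of the 103 tested miRNAs by rank (x axis), with the 4 family members and their 95% limma intervals in red and the median of all tested miRNAs as a dotted line. miR-195, miR-15b and miR-16 sit near the median of -0.35, miR-497 lies at rank 12 from the lowest, and all 4 intervals include 0.

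miR-16, a widely expressed member that is also abundant in red blood cells, was tightly grouped in non-ischemic wounds, with levels of -13.48, -14.00, -13.88 and -13.43 in samples 1 to 4. The ischemic samples had -13.13, -13.83 and -15.66. Ischemic sample 1 was the highest of all 7, ischemic sample 2 lay within the non-ischemic range, and ischemic sample 3 was the lowest. The means were -13.70 ± 0.28 (SD, n = 4) and -14.20 ± 1.31 (SD, n = 3). The difference was -0.50 ± 0.58 (SE, 95% interval -1.83 to 0.82), a 1.42-fold lower level, with an adjusted p of 0.742 in limma. Relative to the median of all tested miRNAs it was -0.15. Its sign rested on ischemic sample 3, without which the difference was 0.22 ± 0.38 (SE), and it was -1.04 ± 0.57 without ischemic sample 1.

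miR-15b, encoded beside one of the miR-16 genes, had levels of -17.65, -18.20, -19.01 and -17.46 in non-ischemic samples 1 to 4 and of -17.61, -18.43 and -19.45 in ischemic samples 1 to 3. Ischemic samples 1 and 2 lay inside the non-ischemic range, and ischemic sample 3 was below it. Among the non-ischemic samples, sample 3 was the lowest. The difference was -0.42 ± 0.55 (SE, 95% interval -1.68 to 0.84), a 1.33-fold lower level, with an adjusted p of 0.774 in limma. Without ischemic sample 3 it was 0.06 ± 0.50.

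miR-195, which in mouse heart is known to hold back the division of heart muscle cells after birth, had levels of -15.57, -16.12, -15.02 and -14.52 in non-ischemic samples 1 to 4. In ischemic samples 1 to 3 it was at -15.25, -14.75 and -16.74. As with miR-15b, ischemic samples 1 and 2 lay inside the non-ischemic range and ischemic sample 3 below it. The difference was -0.27 ± 0.58 (SE, 95% interval -1.58 to 1.05), a 1.20-fold lower level, with an adjusted p of 0.836 in limma. It was 0.31 ± 0.48 without ischemic sample 3.

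miR-497, transcribed from the same short stretch of chromosome 11 as miR-195, had levels of -18.83, -18.54, -18.92 and -17.96 in non-ischemic samples 1 to 4 and of -21.92, -19.22 and -18.44 in ischemic samples 1 to 3. In ischemic samples 1 and 3 it deviated in the opposite direction from the other 3 members. Ischemic sample 3, where they were lowest, lay within its non-ischemic range, and ischemic sample 1, where they lay above the non-ischemic mean, deviated from that mean by -3.35 log2 units (10.2-fold lower). The difference was -1.30 ± 0.76 (SE, 95% interval -3.03 to 0.43), a 2.46-fold lower level, with an adjusted p of 0.422 in limma. It ranked 12 of 103 from the lowest. Without ischemic sample 1 it was -0.27 ± 0.47 (adjusted p = 0.792 in limma), and without ischemic sample 3 it was -2.01 ± 0.67 (95% interval -3.53 to -0.49, adjusted p = 0.112 in limma).

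The low value of miR-497 was a Ct of 36.5, past the detection limit. Ischemic sample 1 had 6 tested miRNAs that were detected in the other 6 samples and not in it, namely miR-497, miR-103, miR-196a, miR-324-3p, miR-379 and miR-706, while the other samples had 0 to 3 such miRNAs each. With every Ct above 35 set to 35, the difference of miR-497 was -0.80 ± 0.49. Of the 103 tested miRNAs in ischemic sample 1, only miR-692, at -3.42, deviated further below the non-ischemic mean than miR-497. The median of all tested miRNAs deviated by -0.21 in that sample.

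**Figure D3:**
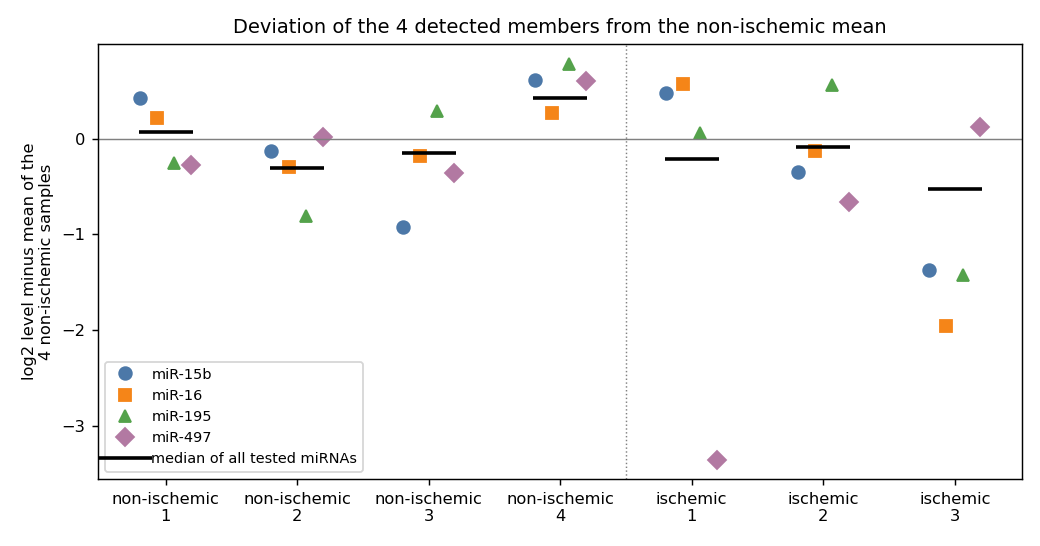
Log2 level of miR-15b, miR-16, miR-195 and miR-497 minus their own mean over the 4 non-ischemic samples (y axis), 1 point per member and sample, with the median deviation of all 103 tested miRNAs as a black bar. In ischemic sample 1 miR-497 alone lies low, at -3.35, and in ischemic sample 3 miR-15b, miR-16 and miR-195 lie between -1.96 and -1.37 while miR-497 is at 0.12.

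In ischemic sample 3 the deviations from the non-ischemic mean were -1.96 for miR-16, -1.43 for miR-195 and -1.37 for miR-15b, beside a median of -0.53 over all tested miRNAs. Counted from the lowest of the 103, these were ranks 13, 24 and 27, so that a sizeable group of miRNAs lay lower still. miR-497 had rank 73. The spread within each group differed between members. In non-ischemic wounds miR-16 had the smallest SD of the 4 at 0.28 and miR-15b the largest at 0.69, beside a median SD of 0.48 over all tested miRNAs. In ischemic wounds the SD was 0.92 for miR-15b, 1.04 for miR-195, 1.31 for miR-16 and 1.82 for miR-497, beside a median of 0.79, and that of miR-497 ranked 94 of 103 from the lowest.

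Whether the clusters moved differently was tested on differences between members within a sample, from which the reference RNA cancels. There are 6 pairs of detected members, and their two-sided exact permutation tests can reach a p of 0.0286 at the lowest. For the neighbours miR-15b and miR-16 the difference in level (miR-15b minus miR-16) was -4.17, -4.21, -5.12 and -4.03 in non-ischemic samples 1 to 4 and -4.48, -4.60 and -3.79 in ischemic samples 1 to 3. The groups overlapped, and their means differed by 0.09 (exact permutation p = 0.914, adjusted over the 6 pairs 0.914), or by -0.16 without ischemic sample 3 and likewise without non-ischemic sample 3.

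For the neighbours miR-195 and miR-497 the difference (miR-195 minus miR-497) was 3.27, 2.42, 3.89 and 3.43 in non-ischemic samples 1 to 4 and 6.67, 4.48 and 1.71 in ischemic samples 1 to 3. The ischemic samples lay on both sides of the non-ischemic range, with 2 above it and 1 below. The means differed by 1.03 (exact permutation p = 0.514, adjusted over the pairs 0.914), by -0.16 without ischemic sample 1 and by 2.32 without ischemic sample 3. The SD of this difference was 0.61 in non-ischemic and 2.49 in ischemic samples.

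Across clusters, the difference of miR-16 and miR-195 had means of 1.61 ± 0.57 (SD, n = 4) in non-ischemic and 1.38 ± 0.65 (SD, n = 3) in ischemic wounds, which differed by -0.24 (exact permutation p = 0.400). That difference was -0.61, -0.0087 and -0.090 without ischemic samples 1, 2 and 3. The difference of miR-15b and miR-195 moved by -0.15 (exact permutation p = 0.857), by 0.24 without ischemic sample 2 and by -0.25 without ischemic sample 3. The pairs with miR-497 moved by 0.79 for miR-16 and 0.88 for miR-15b (exact permutation p = 0.629 and 0.686), and moved by -0.77 and -0.59 without ischemic sample 1 and by 2.23 and 2.07 without ischemic sample 3. Adjusted over the 6 pairs, the exact p was 0.914 for each of these, and groups overlapped in all 6.

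**Figure D4:**
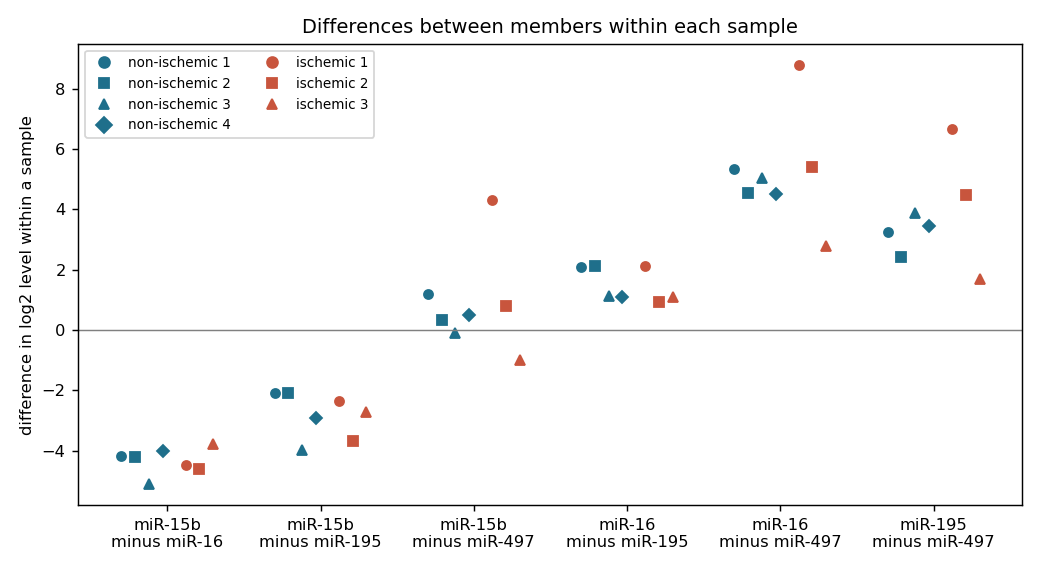
Difference in log2 level between 2 members within a sample (y axis) for the 6 pairs of detected members (x axis), 1 point per sample. Pairs without miR-497 keep the ischemic samples within or close to the non-ischemic range, and in the 3 pairs with miR-497 ischemic sample 1 lies above and ischemic sample 3 below that range.

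As a description over samples that share plate and reference RNA, the levels of miR-15b and miR-16 had a Pearson r of 0.851 over 7 samples and 0.776 over the 6 samples without ischemic sample 3. miR-195 followed miR-16 at 0.753, but at 0.268 without that sample. miR-195 and miR-497 were at -0.125 over 7 samples and 0.0681 over 6. The miRNAs most like each member over the 7 samples were miR-93 (r of 0.939), miR-27b (0.913) and miR-140 (0.912) for miR-15b, and miR-142-3p (0.968), miR-155 (0.959) and miR-140* (0.951) for miR-16. For miR-195 they were miR-106a (0.985), miR-222 and miR-19a (0.964 each), and for miR-497 miR-324-3p (0.969), miR-484 (0.925) and miR-692 (0.916). Without ischemic sample 3 the r of miR-16 with miR-142-3p was 0.763, and without ischemic sample 1 the r of miR-497 with miR-692 was 0.251.

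Of the members below the detection limit, miR-15a, miR-424 and miR-503 did not pass an exact permutation test of the difference against 5S rRNA. miR-322, which gave no product, was not tested. miR-15a had a Ct of 37.7, 37.4, 39.0 and 37.9 in non-ischemic samples 1 to 4 and of 38.001, 35.6 and 37.5 in ischemic samples 1 to 3. Ischemic sample 2 alone was earlier than every non-ischemic sample. The means differed by 0.83 log2 units (exact permutation p = 0.400, n = 4 and 3), by 0.15 without ischemic sample 2 and by 1.04 without ischemic sample 3.

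From the X-linked cluster, known in mouse muscle to drive cells out of the cycle, miR-322 gave no product in 7 of 7 samples. miR-424 had a Ct of 35.3, 36.5, 40 and 36.1 in non-ischemic samples 1 to 4 and of 35.5, 35.6 and 37.0 in ischemic samples 1 to 3, so that the groups overlapped. With 40 entered as it stands, its means differed by 0.85 (exact permutation p = 0.743), by -0.16 without non-ischemic sample 3, the sample at 40, and by 1.31 without ischemic sample 3. The miR-322 and miR-424 assays may read different arms of the miR-322 gene. Which of them, if either, reads the arm printed above could not be settled, so the values of either may not be of the arm with the family seed. miR-503 had a Ct of 40, 39.8, 40 and 40 in non-ischemic samples and of 37.1, 35.8 and 40 in ischemic samples 1 to 3. Late product thus appeared in ischemic samples 1 and 2, and ischemic sample 3 gave none. The difference of 2.21 was larger than the SD of either group (0.093 and 2.12) and had an exact permutation p of 0.286. After global mean and after global median normalization the exact permutation p was 0.0571. No product was seen in 4 samples, whose Ct of 40 was entered as it stands and shifted with the sample by global normalization. These p-values thus rest partly on readings without product. Against 5S rRNA the difference was 1.33 without ischemic sample 2 and 3.38 without ischemic sample 3. No fold is given because both groups were past Ct 35. The non-family miRNAs of that part of chromosome X were no better detected. miR-450 gave no product in 7 samples, and miR-542-3p, miR-542-5p and miR-351 had a lowest Ct of 38.7, 39.9 and 36.4.

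The authors' deposited table, which averages linear ratios to 5S rRNA within each group, puts miR-503 at 7.82-fold higher in ischemic wounds, rank 4 of 306 miRNAs from the highest fold. Its group means in the authors' deposited table rest on the Ct values of 35.8 to 40 given above. That table puts miR-15a at 2.10-fold (rank 18) and miR-424 at 1.18-fold, also from assays with no Ct below 35. For the detected members the authors' deposited table has ratios of 0.584 for miR-497, 0.789 for miR-15b, 0.874 for miR-16 and 0.887 for miR-195. These all lie below 1, like the log2 differences here. Both come from the same Ct values and the same 5S rRNA reference, so the shared direction is not separate support.

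Other miRNAs known for the same roles were counted from lists drawn from textbook knowledge. Of 20 listed miRNAs that act on G1 regulators, 9 were tested, of which 9 had a lower mean in ischemic wounds (median difference -0.53, beside -0.35 for all tested miRNAs) and 0 passed limma in either direction. The smallest p belonged to miR-124a, a neural miRNA that targets Cdk6, at -1.66 ± 0.46 (SE, adjusted p = 0.156 in limma) and let-7b, which acts on cyclins and Ras, at -0.98 ± 0.40 (0.219). Of 15 listed miRNAs that act on VEGF-A or, for miR-378, promote its output, 13 were tested, 10 lower and 3 higher (median -0.27), and 0 passed. The smallest p here belonged to miR-200b, which represses VEGF-A and its receptor signalling, at -1.98 ± 0.50 (adjusted p = 0.120 in limma) and to miR-378 at 1.27 ± 0.48 (0.219). Without ischemic sample 3, miR-124a (-2.004, adjusted p = 0.0188 in limma) and miR-200b (-2.37, 0.0176) passed, 1 of 9 and 1 of 13, beside 7.77% of all tested miRNAs. The split was then 7 lower and 2 higher in the first list and 6 lower and 7 higher in the VEGF-A list. The directions also depended on the reference, with 6 of 9 and 4 of 13 lower after global mean normalization and 4 of 9 and 2 of 13 after global median normalization.

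Markers of cell types in the samples moved with some of these values. Sums here add the linear levels of the miRNAs of a list, so the highest level weighs most. The summed leukocyte level deviated from the non-ischemic mean by -0.22, 0.36 and -4.58 in ischemic samples 1 to 3 (non-ischemic range -0.17 to 0.48). This sum, which follows miR-223 (-0.23, 0.36 and -4.58), was low in the sample where miR-15b, miR-16 and miR-195 were low. miR-142-3p lay at 0.59, 0.34 and -4.32 and miR-142-5p at 0.40, 0.45 and -4.17, both undetected in ischemic sample 3. In ischemic sample 1 they lay on the other side of the non-ischemic mean from miR-223. All 3 leukocyte miRNAs listed were on the plate, and 1 was detected in all samples. They do not stand for all leukocytes. The summed skeletal muscle level (4 of 4 detected in all samples) deviated by 0.39, 1.14 and 2.25, against -0.21 to 0.21 in non-ischemic samples. Of these, miR-206 lay at -0.63 in ischemic sample 1, on the other side of the non-ischemic mean from miR-1, miR-133a and miR-133b. The summed level of the erythroid pair miR-451 and miR-486 deviated by 3.22, 2.13 and 2.65 (-1.40 to 1.10 in non-ischemic samples). Neither miRNA was detected in all samples. miR-451 was detected in 3 samples and miR-486 in 5. For both, the non-ischemic mean includes readings past the detection limit, so the size of these erythroid deviations is uncertain. The summed keratinocyte level (3 of 5 miRNAs detected in all samples) deviated by -0.56, -0.998 and -0.44, beside -0.46 to 0.45. Within that list, miR-203 lay at -1.93, -2.24 and -0.08 and miR-200b at -2.18, -2.55 and -1.20 in ischemic samples 1 to 3. miR-200c lay at 0.02, -0.55 and -0.53. Of those not detected in all samples, miR-205 lay at -0.03, 0.18 and -0.30 and miR-429 at -1.01, -0.68 and 0.24. The summed fibroblast and smooth muscle level deviated by -1.79, -0.23 and -1.27 (-0.36 to 0.37 in non-ischemic samples), with miR-143 and miR-199a undetected in every sample. Of the 2 detected members, miR-214 lay at -2.44, -0.20 and -1.94 and miR-145 at -0.29, -0.38 and 0.54, on opposite sides of the non-ischemic mean in ischemic sample 3. The endothelial miR-126 deviated by -0.91, -0.08 and -0.37 (-0.38 to 0.22 in non-ischemic samples), so that ischemic samples 2 and 3 lay within the non-ischemic range. Their part in the levels of the family was not tested.

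**Figure D5:**
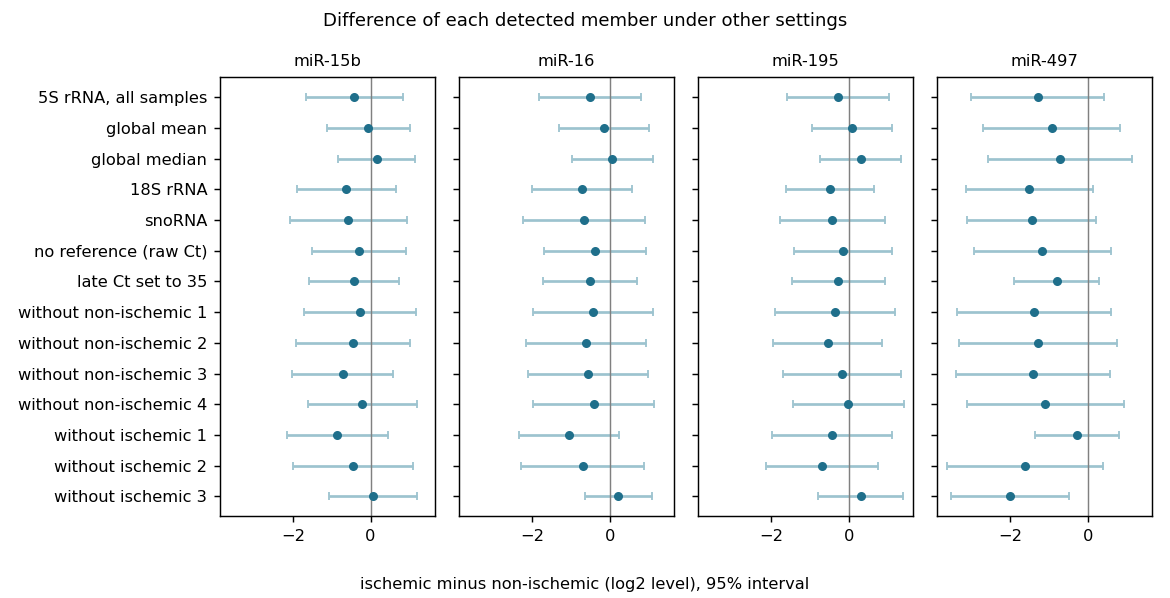
Difference in log2 level, ischemic minus non-ischemic (x axis), of the 4 detected members with 95% limma intervals under other references, with late Ct set to 35 and with each sample left out. The interval of miR-497 without ischemic sample 3, -3.53 to -0.49, is the one shown that does not include 0, and miR-15b, miR-16 and miR-195 change sign without that sample and after global median normalization.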

How the data were processed

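Real-time PCR used 500 ng of total RNA per sample, reverse transcribed with pooled looped primers, per the labels' protocols. No source used here names the software that set the Ct. The authors deposited raw Ct values, log2 values (delta Ct), linear ratios to 5S rRNA (2 to the power of the delta Ct) and, in a further table, group means and fold. The deposited delta Ct equalled 5S rRNA minus assay Ct within 0.0001 cycles for 315 of 316 assays. 18S has the opposite sign, so its raw Ct was used. Sample columns were matched to titles through the second header line, and 7 columns repeating 5S rRNA were not used. No molecule count stands behind a Ct, so precision comes from the spread between samples.

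Groups and replicate numbers come from the titles. Tests used limma 3.58.1 in R 4.3.3 (lmFit, eBayes, two-sided) on miRNAs that passed Ct 35 in 3 or more samples, and exact permutation tests of means in scipy 1.17.1. The limma fit was tested on simulated data. The members, lists and tests were chosen with earlier results of these data known. Named miRNAs are all members, the 3 miRNAs most correlated with each, 2 per list by smallest p and the marker lists. miRNAs missing in 1 sample, miR-692 and the chromosome X neighbours were named after their values were seen. List names were matched to assays by exact name, with miR-17-5p for miR-17 and miR-124a for miR-124. Alternatives covered references, late Ct, filters, variance trend, samples left out and the replicate block.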

Additional observations from a re-analysis of the deposited data

Results flagged for a closer look

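Among 12 sets of 4 non-ischemic values of family members and their differences, 2 had a sample far from the others by Dixon's criterion, which chance meets in about 1 of 20 sets. For miR-15a it was the level against 5S rRNA that met the criterion, at -24.37 in non-ischemic sample 3 beside -23.05 to -22.95. The Ct there was 39.0, later than the 37.4 to 37.9 of the other non-ischemic samples, all of them past the detection limit. The difference of miR-15b and miR-16 was -5.12 in the same sample, beside -4.21 to -4.03 in the other non-ischemic samples.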

How the results depend on the processing

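No detected member passed limma under any alternative, and miR-497 had a lower ischemic mean in all 17 that gave it a value (adjusted p 0.112 to 0.792); it is outside the filter of detection in all 7 samples. The number of all tested miRNAs called was 0 with 5S rRNA, 1 after global mean and 1 after global median normalization, and ran from 0 to 8 over samples left out in turn, the 8 without ischemic sample 3. The log2 differences of miR-15b, miR-16 and miR-195 changed sign after global median normalization (0.16, 0.072 and 0.31), and that of miR-195 after global mean normalization (0.092). Over samples left out they ran from -0.86 to 0.062, -1.04 to 0.22 and -0.68 to 0.31. For miR-424 they ran from -0.16 to 1.41, for miR-503 from 1.33 to 3.38 and for miR-15a from 0.15 to 1.28. Differences between members ran from -0.16 to 0.24 for miR-15b minus miR-16, from -0.55 to 0.24 for miR-15b minus miR-195, from -0.59 to 2.07 for miR-15b minus miR-497, from -0.77 to 2.23 for miR-16 minus miR-497, from -0.61 to -0.0087 for miR-16 minus miR-195 and from -0.16 to 2.32 for miR-195 minus miR-497. The causes were not tested. With a Ct below 38 as detection, miR-15a was detected in 5 samples, miR-424 in 6 and miR-503 in 2. With a Ct below 32, miR-15b and miR-497 were detected in 0.

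Replicate numbers are shared between groups. Over miRNAs, the deviations of same-numbered samples had r of -0.08, -0.30 and -0.11, within the -0.43 to 0.41 of differently numbered samples. These r values cannot settle whether same-numbered samples share an animal or a batch. With the replicate block 0 miRNAs were called, and miR-497 was at -1.10 and miR-195 at -0.01. The reference of snoRNA assays without snoRNA202 was chosen after seeing the data; it made no calls, the family members kept their signs, and 70 of 103 tested miRNAs were lower beside 79. Levels near or past Ct 35 are the least precise.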
